A study of Mus musculus with 96 samples.

Results

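Coagulation and complement genes of the liver are described here: 34 genes whose products the liver secretes into plasma, or that act on those products. The list was drawn up by name, with earlier results of these data known. All 34 had counts, among 35670 genes with any count, and all 34 passed the filter on low counts, among 15772 genes tested. They comprised 10 procoagulant factors (F2, F5, F7, F9, F10, F11, F12, F13b, Kng1, Klkb1), 4 anticoagulants (Serpinc1, Serpind1, Proc, Pros1), 3 genes of fibrinolysis (Plg, Serpinf2, Cpb2), 8 of complement activation (C2, C3, C4b, Cfb, Masp1, Masp2, Mbl1, Mbl2), 5 of the terminal complex (C6, C8a, C8b, C8g, C9) and 4 complement regulators (Serping1, Vtn, Cfi, C4bp). Liver mRNA had been sequenced from mice aged 12 to 16 weeks, every 4 h through a day (6 zeitgeber times, ZT, counted in hours from lights on). The 8 groups of 12 libraries were the wild type (WT) and knockout (KO) of a Bmal1 line and of a Cry line, each fed ad libitum (AL) or with food restricted to the night (RF). BMAL1 is the activator of the circadian clock and CRY1 and CRY2 are its repressors. The Cry KO is a double KO of Cry1 and Cry2. Each group held 2 numbered series of 6 libraries, 1 library per time. The sources used here name neither strain, sex nor the way in which the alleles were made. Nothing in the labels says which libraries came from separate animals, and p-values therefore cover the spread among these libraries, which may be technical.

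Clotting proceeds through proteases that activate each other in turn, up to thrombin, which turns fibrinogen into fibrin; serpins and the protein C system restrain it, and plasmin dissolves the clot. Complement is a related set of plasma proteases and binding proteins that starts from antibody, from mannose-binding lectins or from spontaneous turnover of C3, and ends in a pore made of the terminal components. Hepatocytes make most of these proteins, and several of them are acute phase proteins, whose synthesis changes in inflammation.

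Levels are normalised read counts, scaled by library size (CPM). The 34 genes together took a median of 2.90% to 3.78% of all counts in the 8 groups. Per kilobase of exon, the scale on which genes can be compared, C3 had the highest median over all libraries at 1858 CPM per kb, followed by the complement regulator and adhesion protein Vtn at 1079, the kininogen Kng1 at 631, plasminogen (Plg) at 596 and prothrombin (F2) at 330 CPM per kb. Pros1, the cofactor of activated protein C, was at 18.4 CPM per kb, and C2 and factor B (Cfb), the proteases that C3 convertases are built on, were lowest at 6.83 and 3.06. The values of C2 and Cfb are uncertain, because both share exons with a same-strand gene model, Gm20547, that is listed at 0 counts in all 96 libraries, so reads in shared exons may have been dropped. C4b has a near-identical copy, C4a, and Kng1 has the paralog Kng2, so reads could be split between copies. How the counting treated strand is unknown here, and the gene overlapping Masp2 on the opposite strand, Tardbp, had 56.0% as many counts as Masp2.

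Among libraries, C6, which carries C7 into the growing pore, varied most, with its highest CPM 17.8-fold above its lowest. That rank rests on a single Bmal1 KO RF library at 34.7 CPM, against 102 CPM or more in the others of its group. C2 came next, at 7.53-fold, and Masp2, the serine protease of lectin complexes, varied least, 1.66-fold. Total counts ran from 1478963 to 35568856 per library, with a median of 25422366. Marker genes showed liver tissue: 9 of 10 hepatocyte markers had counts, and their summed level had group medians of 57933 to 114824 CPM, against 210 to 409 CPM for 7 Kupffer cell markers and 365 to 552 CPM for 8 endothelial markers. Cry1 was at 5.38 to 12.7 CPM over the 24 Cry KO libraries and at 5.95 to 71.4 CPM over the 24 Cry WT libraries, and Cry2 at 13.1 to 31.96 against 18.9 to 60.7 CPM. Arntl, the gene of BMAL1, was at 9.71 to 21.2 CPM in the Bmal1 KO and at 0.272 to 45.0 CPM in the Bmal1 WT; counts per gene do not separate a deleted exon, so Arntl is no check of that label. The series numbered 2 of the Cry KO AL group stood apart from series 1 of the same group, and 2 libraries with over 5000 CPM of the acute phase gene Saa1 stood apart from theirs. For the 34 genes, the results that rest on these libraries are given with and without them. In the results below, the libraries that stood apart are a set of 7. These had over 5000 CPM of Saa1, 50 CPM of Isg15 or 40 CPM of Ctrb1. The set includes the 2 Saa1 libraries but no library of the Cry KO AL group.

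Sequences upstream of the start are shown for the genes on which the results below turn. F11 and Klkb1 encode factor XI and plasma prekallikrein, homologous contact-phase proteases, and lie next to each other on the minus strand of chromosome 8 (F11 at 45241174 to 45262031, Klkb1 at 45266689 to 45294859, mm10). Serpinf2 encodes alpha2-antiplasmin, the inhibitor of plasmin. C9 and C8a encode terminal components that moved in opposite directions in the Bmal1 KO. C6 was the sole gene of the list with a ROR element in its window. Each window holds the 250 bases before the RefSeq start in GRCm38.p6, written 5′ to 3′ on the strand of the gene. Capitals mark a match to TTGCNNAA (a loose C/EBP motif) in F11, Klkb1 and C9, or to TAGGTCA (the ROR element) in C6, on either strand.
F11, chr8:45262032-45262281, minus strand: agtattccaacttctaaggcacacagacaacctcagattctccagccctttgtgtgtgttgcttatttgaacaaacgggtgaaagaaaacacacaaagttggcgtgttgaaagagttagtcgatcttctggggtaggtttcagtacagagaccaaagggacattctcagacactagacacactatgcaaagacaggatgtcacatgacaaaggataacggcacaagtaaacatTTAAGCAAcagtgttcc
Klkb1, chr8:45294836-45295085, minus strand: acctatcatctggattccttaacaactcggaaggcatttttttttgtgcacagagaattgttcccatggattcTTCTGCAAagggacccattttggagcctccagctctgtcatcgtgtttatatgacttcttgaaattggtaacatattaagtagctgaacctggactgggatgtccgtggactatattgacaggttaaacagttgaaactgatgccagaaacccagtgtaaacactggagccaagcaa
Serpinf2, chr11:75439502-75439751, minus strand: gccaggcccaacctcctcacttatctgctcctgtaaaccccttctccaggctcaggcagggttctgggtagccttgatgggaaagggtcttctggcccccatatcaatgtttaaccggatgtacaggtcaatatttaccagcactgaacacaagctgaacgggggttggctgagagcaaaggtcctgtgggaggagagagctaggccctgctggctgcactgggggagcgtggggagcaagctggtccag
C9, chr15:6445096-6445345, plus strand: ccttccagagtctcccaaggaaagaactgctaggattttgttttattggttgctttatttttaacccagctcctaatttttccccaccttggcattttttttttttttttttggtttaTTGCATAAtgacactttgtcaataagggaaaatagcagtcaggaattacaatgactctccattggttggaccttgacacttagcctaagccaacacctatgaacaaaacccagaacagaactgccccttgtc
C8a, chr4:104876399-104876648, minus strand: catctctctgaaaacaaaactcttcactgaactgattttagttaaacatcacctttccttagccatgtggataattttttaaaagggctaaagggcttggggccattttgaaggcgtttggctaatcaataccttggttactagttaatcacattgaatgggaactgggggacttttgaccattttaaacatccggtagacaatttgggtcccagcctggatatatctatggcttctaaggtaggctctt
C6, chr15:4726960-4727209, plus strand: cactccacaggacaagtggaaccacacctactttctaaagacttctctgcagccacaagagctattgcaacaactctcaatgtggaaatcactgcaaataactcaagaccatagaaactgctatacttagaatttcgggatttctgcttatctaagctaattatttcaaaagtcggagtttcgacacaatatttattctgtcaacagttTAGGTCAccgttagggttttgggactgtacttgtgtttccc

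RefSeq windows were given for 25 of the 34 genes, 26 windows in all, since C8g had 2. None was given for C2, C4b, Cfb, Cfi, Serping1, Masp1, Kng1, Plg and Proc. The E-box CACGTG, which BMAL1 binds with its partner, was in 0 of the 26 windows, against 6.02% of all 32851 windows of that length. The D-box forms TTATGTAA (0.82% of all windows) and TTACGTAA (0.11%) were likewise in 0 of 26. TAGGTCA was in 1 window, that of C6, 41 bases before the start (2.23% of all). TTGCNNAA was in 5 windows, those of C3, C9, F9, F11 and Klkb1 (9.56% of all), and its palindromic form TTGCGCAA, which it includes, in 0 (0.16%). The HNF1 motif GTTAATNAT was in the windows of C4bp and F13b (0.74% of all), and the HNF4 motif CAAAGTCCA in 0 (0.38%). These are matches of letters in a short window; binding was not measured.

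The Bmal1 KO was compared with its WT in mean level over the 6 times, to ask which plasma protein genes depend on BMAL1 under each feeding regimen. Under AL, 10 of the 34 genes changed at a Benjamini-Hochberg adjusted p under 0.05 (edgeR quasi-likelihood test), 5 higher and 5 lower in the KO, against 24.4% of all genes tested. Their median log2 fold change was -0.09 over the list and 0.02 over all genes. Under RF, 10 changed, 6 higher and 4 lower, against 20.6% of all genes, with medians of 0.08 and 0.01. The changed genes were C9, Plg, C3, Mbl1 and F13b on the higher side and C2, Cfb and C8a on the lower side under both regimens. These 8 were 8 of the 10 called in each regimen. That overlap was not counted over all genes tested, so it is not read as a trait of the list. Kng1 and F7 fell under AL alone in the test, and C6 fell and C4b rose under RF alone, but no gene of the list, and 0% of all genes, passed the test of a difference of KO effect between regimens (edgeR; 2 genes of the list had an unadjusted p under 0.05, and DESeq2 called 0).

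**Figure D1:**
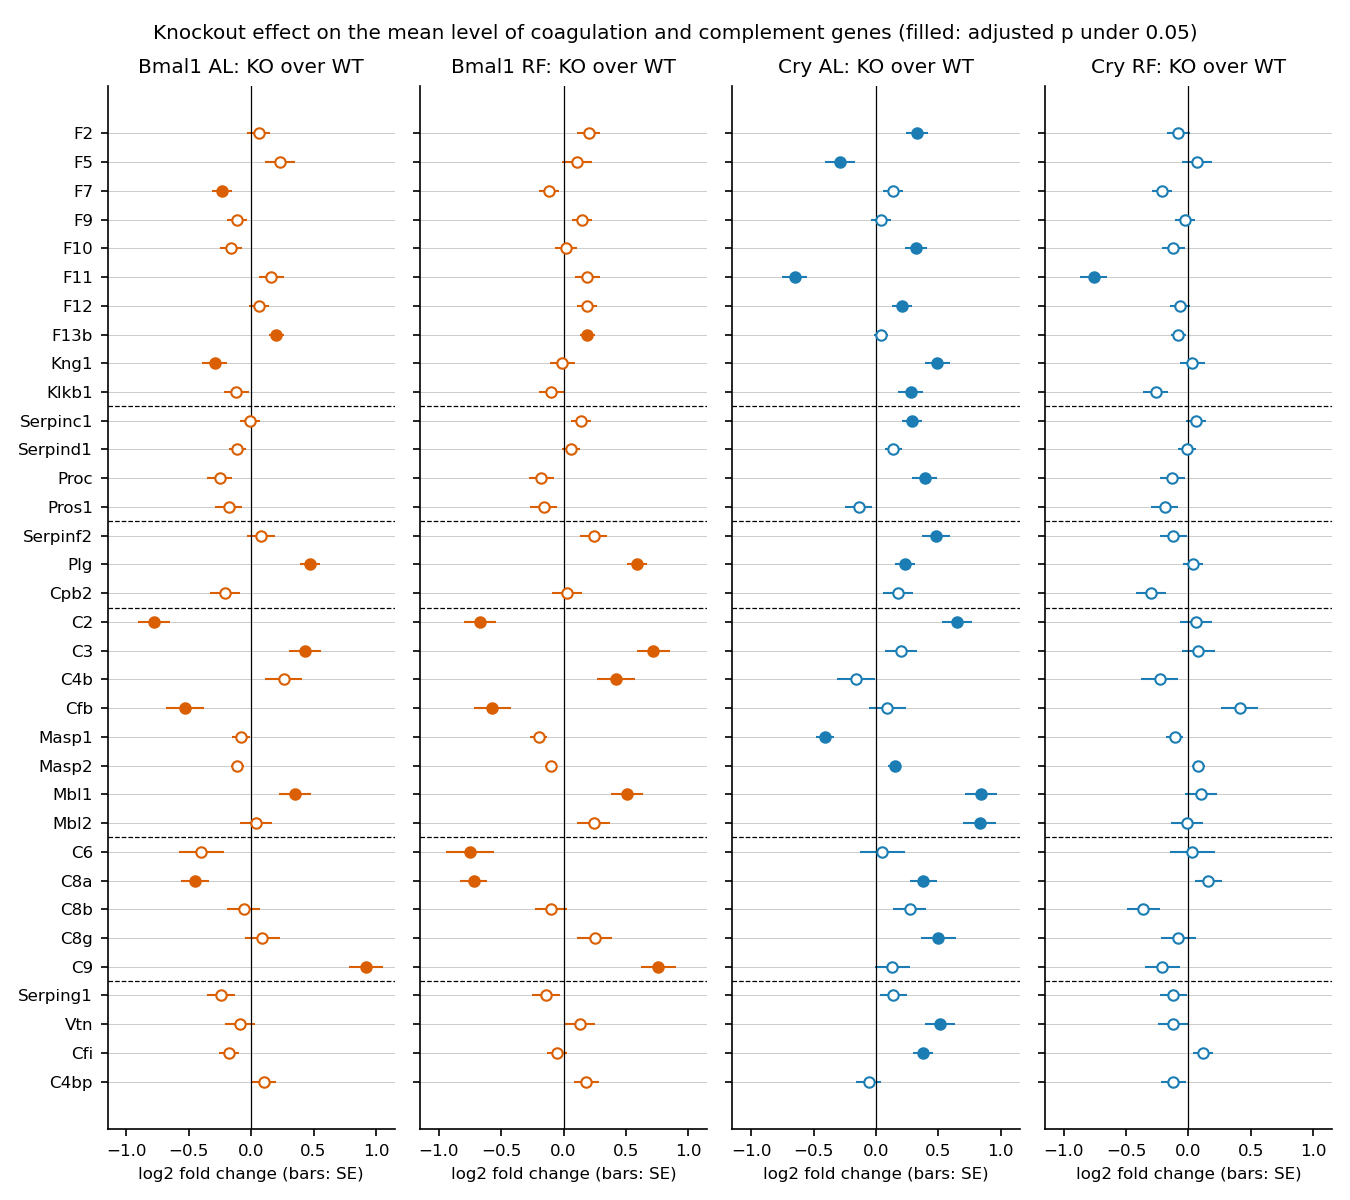
Log2 fold change of the mean level, KO over WT, for the 34 genes (rows, grouped by role between dashed lines) in each line and feeding regimen; bars are SE, and filled points passed the adjusted p threshold. C9, Plg, C3 and Mbl1 lie to the right and C2, Cfb and C8a to the left in both Bmal1 panels, and in the Cry RF panel F11 is the only filled point.

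C9, the component that polymerises into the pore wall, was the gene of the list with the largest rise. Its lowest, median and highest levels over 12 libraries were 371, 714 and 1294 CPM in the Bmal1 WT AL and 944, 1341 and 2191 CPM in the KO AL. Under RF they were 399, 625 and 881 CPM in the WT and 593, 1154 and 1510 CPM in the KO. The KO medians lay above the WT medians and the ranges overlapped in both comparisons. C9 was 1.89-fold higher in the KO under AL (log2 0.92 ± 0.14 SE, edgeR adjusted p = 1.43e-06) and 1.70-fold higher under RF (0.76 ± 0.14, adjusted p = 4.19e-05), in the same direction at all 6 times in each. C8a, which encodes the alpha chain of C8, moved the other way. It was at 540, 848 and 1414 CPM in the WT AL against 372, 647 and 802 in the KO AL, and at 767, 930 and 1425 CPM in the WT RF against 442, 572 and 732 in the KO RF. Under RF every KO library was below every WT library. C8a fell by 0.45 ± 0.11 on the log2 scale under AL (edgeR adjusted p = 0.00203) and by 0.72 ± 0.11 under RF (adjusted p = 1.51e-06). C8b, the neighbouring gene on chromosome 4 that encodes the beta chain, had a log2 difference of -0.06 ± 0.13 under AL and -0.10 ± 0.13 under RF, and C8g, the gamma chain, had 0.09 ± 0.14 and 0.25 ± 0.14; neither passed the test. The terminal complex list thus held 1 higher and 1 lower of 5 genes under AL and 1 higher and 2 lower under RF, where C6 had a log2 difference of -0.75 ± 0.19 (adjusted p = 0.00198).

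Plasminogen, the precursor of plasmin, rose in both regimens. Plg was at 1465, 2002 and 2810 CPM in the WT AL and 2486, 2771 and 3084 CPM in the KO AL. Under RF it was at 1560, 1831 and 2321 CPM in the WT and 2287, 2724 and 3617 CPM in the KO. Under RF the ranges barely overlapped. Plg was 1.39-fold higher under AL (log2 0.47 ± 0.08 SE, edgeR adjusted p = 7.45e-06) and 1.51-fold higher under RF (0.59 ± 0.08, adjusted p = 5.74e-08). The 2 other genes of fibrinolysis, Serpinf2 and Cpb2, did not pass the test in either regimen. Nor did any of the 4 anticoagulants or the 4 complement regulators.

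Complement activation genes divided. C2 was at 20.3, 28.4 and 46.4 CPM in the WT AL and 13.2, 16.9 and 20.02 CPM in the KO AL, with no overlap, and at 19.3, 25.4 and 34.8 CPM in the WT RF and 10.8, 17.2 and 19.4 CPM in the KO RF. C2 fell by 0.78 ± 0.13 on the log2 scale under AL (edgeR adjusted p = 2.29e-06) and by 0.67 ± 0.13 under RF (adjusted p = 4.33e-05). Cfb, the alternative pathway counterpart of C2 and its neighbour on chromosome 17, fell by 0.53 ± 0.15 and 0.57 ± 0.15, at mean levels of 6.17 ± 1.02 (SD) against 8.96 ± 1.92 CPM and 6.58 ± 2.27 against 9.60 ± 2.07 CPM (n = 12 each; adjusted p = 0.00536 and 0.00332 in edgeR). C3, the protein on which all activation routes converge, rose instead. It was at 7500, 8595 and 13375 CPM in the WT AL and 9646, 11983 and 14150 CPM in the KO AL, and under RF at 6871, 8142 and 12400 CPM in the WT and 10423, 12764 and 35581 CPM in the KO. The log2 difference of C3 was 0.43 ± 0.13 under AL (adjusted p = 0.00958) and 0.72 ± 0.13 under RF (adjusted p = 1.72e-05), the latter 0.52 without the 7 libraries that stood apart. Mbl1, a mannose-binding lectin, rose by 0.35 ± 0.13 and 0.51 ± 0.13 on the log2 scale, from 190 ± 40.8 to 238 ± 23.6 CPM under AL and from 166 ± 32.4 to 234 ± 20.9 CPM under RF.

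**Figure D2:**
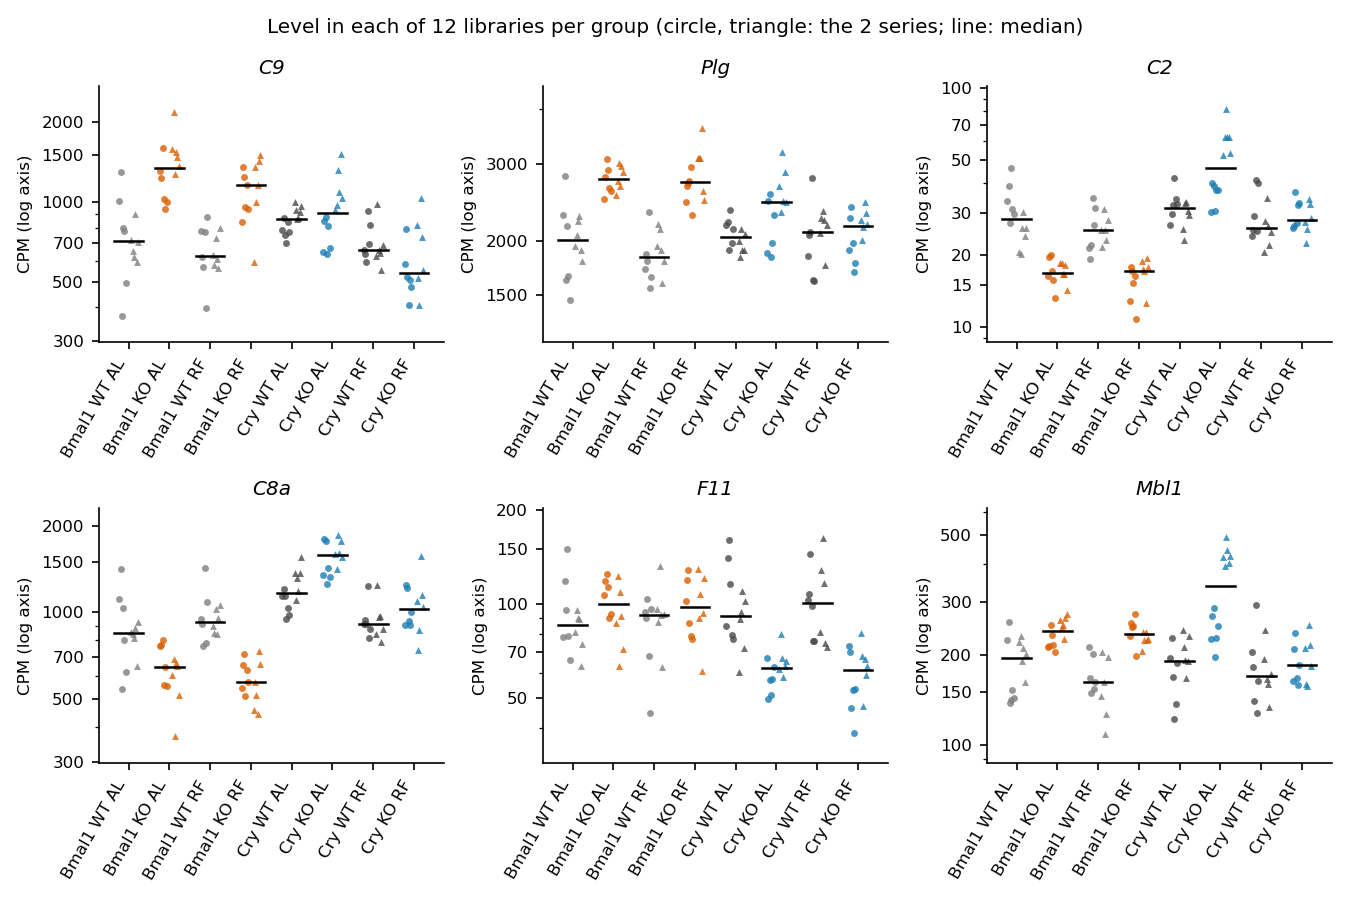
CPM on a log axis of 6 genes in each of the 12 libraries of the 8 groups; WT points are grey and KO points coloured, circles and triangles are the 2 series of a group and lines are group medians. In both Bmal1 KO groups the medians of C2 and C8a lie below and those of C9 and Plg above the medians of the WT. The F11 median is low in both Cry KO groups, and in the Cry KO AL group the triangles (series 2) of Mbl1 and C2 lie above the circles.

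Of 45 other clotting and complement genes that could be tested, 3 were higher and 5 lower in the Bmal1 KO under AL, against 24.4% of all genes. Under RF 2 were higher and 6 lower, against 20.6% of all genes. C1s1 and C1ra, the proteases of the first complement component, were among the lower ones. C1s1 was at 306, 369 and 421 CPM in the WT AL and 187, 233 and 254 CPM in the KO AL, with no overlap, and its log2 difference was -0.69 ± 0.08 under AL and -0.69 ± 0.08 under RF (edgeR adjusted p = 2.97e-10 and 3.21e-10). C1ra fell by 0.36 ± 0.08 and by 0.29 ± 0.08. Gas6, a vitamin K dependent ligand of TAM receptors, fell by 0.86 ± 0.18 and by 1.14 ± 0.18. C7 fell by 1.04 ± 0.25 under RF, at means of 1.40 CPM in the KO and 3.03 CPM in the WT. The tissue plasminogen activator gene Plat rose by 0.93 ± 0.24 under AL, at means of 0.862 and 0.516 CPM.

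With a random effect for series in limma-voom, which allows for correlation within a series (consensus correlation 0.248), 3 of the 10 genes called under AL remained (C9, Plg, C2) and 5 of the 10 under RF (C8a, C9, Plg, C2, C3). Leaving out 1 series of the 4 in each comparison kept between 5 and 8 of the 10 calls under AL and between 7 and 10 under RF. C8a under AL was lost without series 8 of the KO (-0.37, adjusted p = 0.0549), and C3 under RF without series 4 of the KO (0.39, adjusted p = 0.0509). In bulk liver, fewer cells of a type and less RNA per cell cannot be told apart. The summed hepatocyte markers had medians of 57933 and 64281 CPM in the Bmal1 KO AL and RF groups against 111334 and 97480 CPM in the WT groups, with 0 higher and 2 lower of 9 markers under AL and 1 higher and 1 lower under RF; the summed acute phase genes had medians of 5079 and 5236 against 5528 and 4902 CPM, with 1 higher and 3 lower of 10 under AL and 2 higher and 0 lower under RF. Most of the drop in the hepatocyte sum was that of albumin (Alb), at a median of 20879 CPM in the KO AL against 74711 CPM in the WT AL and of 25061 against 61901 CPM under RF. The median log2 difference of the 9 hepatocyte markers was -0.20 and -0.08. Their part in the results was not tested.

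The Cry KO was compared with its WT in the same way. Under RF, 1 of the 34 genes changed, F11, against 6.3% of all genes tested. The medians were -0.08 over the list and -0.03 over all genes. F11 was at 72.8, 101 and 163 CPM in the Cry WT RF and 38.6, 61.5 and 80.6 CPM in the KO RF, and at 60.8, 91.7 and 160 CPM in the WT AL and 49.6, 62.4 and 80.5 CPM in the KO AL. Under RF the KO median was below the lowest WT library, and the ranges overlapped between 72.8 and 80.6 CPM. Under AL they overlapped between 60.8 and 80.5 CPM. F11 was 1.70-fold lower in the KO under RF (log2 -0.76 ± 0.11 SE, edgeR adjusted p = 4.15e-07) and 1.57-fold lower under AL (-0.65 ± 0.10, adjusted p = 5.33e-06), at all 6 times in each. Both calls held under all 11 alternatives run for each. Its neighbour Klkb1 differed by -0.26 ± 0.10 under RF without passing the test (adjusted p = 0.101).

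Under AL, 20 of the 34 genes changed in the Cry KO, 17 higher and 3 lower, against 33% of all genes, with medians of 0.20 over the list and -0.03 over all genes. By role, 5 of the 10 procoagulant factors were higher and 2 lower, 2 of 4 anticoagulants, 2 of 3 genes of fibrinolysis, 2 of 5 terminal components and 2 of 4 regulators were higher, and 4 of 8 activation genes were higher and 1 lower. The lectins Mbl1 (log2 0.84 ± 0.13 SE) and Mbl2 (0.83 ± 0.13) rose most. C2 (0.65 ± 0.12), Kng1 (0.49 ± 0.10), Serpinf2 (0.48 ± 0.11) and factor I, Cfi (0.38 ± 0.08), the protease that inactivates C3b and C4b, were also higher, with edgeR adjusted p-values up to 0.000784 in these 6 genes. F11, Masp1 (-0.41 ± 0.07, adjusted p = 3.67e-05) and factor V, F5 (-0.29 ± 0.12, adjusted p = 0.0496) were lower. The other 11 genes that rose did so by 0.15 to 0.51 on the log2 scale.

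Without series 2 of the Cry KO AL group none of the 17 rises passed the test. The largest values left were 0.36 for Mbl1, 0.32 for Mbl2 and 0.30 for C8a (adjusted p = 0.0745, 0.104 and 0.243). Within the Cry KO AL group, series 2 exceeded series 1 in 29 of the 34 genes, by a median of 0.45 in log2(CPM + 0.5), with a range from -0.69 to 1.18. Over all genes tested, 45.6% were higher in series 2 and the median was -0.06. For the list, the medians between the series of the 7 other groups ran from -0.10 to 0.14. Mbl1 was at 196, 238 and 285 CPM in series 1 and 394, 425 and 495 CPM in series 2, and C2 at 30.4, 37.3 and 40.03 CPM against 52.3, 62.2 and 81.6 CPM, with no overlap between series. Without series 2, 2 of the 34 genes were called, F11 and Masp1, and without series 1, 26 were called. The shares of all genes called in these settings are not given, so the counts are not read as a trait of the list. F11 was similar in both series, at 49.6, 57.2 and 66.9 CPM in series 1 and 58.4, 64.5 and 80.5 CPM in series 2. Series 2 also had lower summed endothelial markers (99.2 to 195 against 535 to 610 CPM), Kupffer markers (101 to 246 against 324 to 670 CPM) and stellate markers (122 to 205 against 267 to 316 CPM), and higher hepatocyte markers (91743 to 149798 against 75203 to 100167 CPM). The summed acute phase genes had a lowest, median and highest level of 7886, 12525 and 18778 CPM in series 2 and 4808, 5960 and 17395 CPM in series 1. In the KO effect under AL, 2 of 8 endothelial, 3 of 6 stellate and 1 of 7 Kupffer markers were lower and 0 higher, while 2 of 6 B and T cell markers (median log2 0.72) and 1 of 3 neutrophil markers (0.96) were higher and 0 lower. Among 4 cholangiocyte markers 2 were higher and 1 lower, among 9 hepatocyte markers likewise 2 and 1, and 0 of 10 acute phase genes passed. Their part in the results was not tested.

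**Figure D3:**
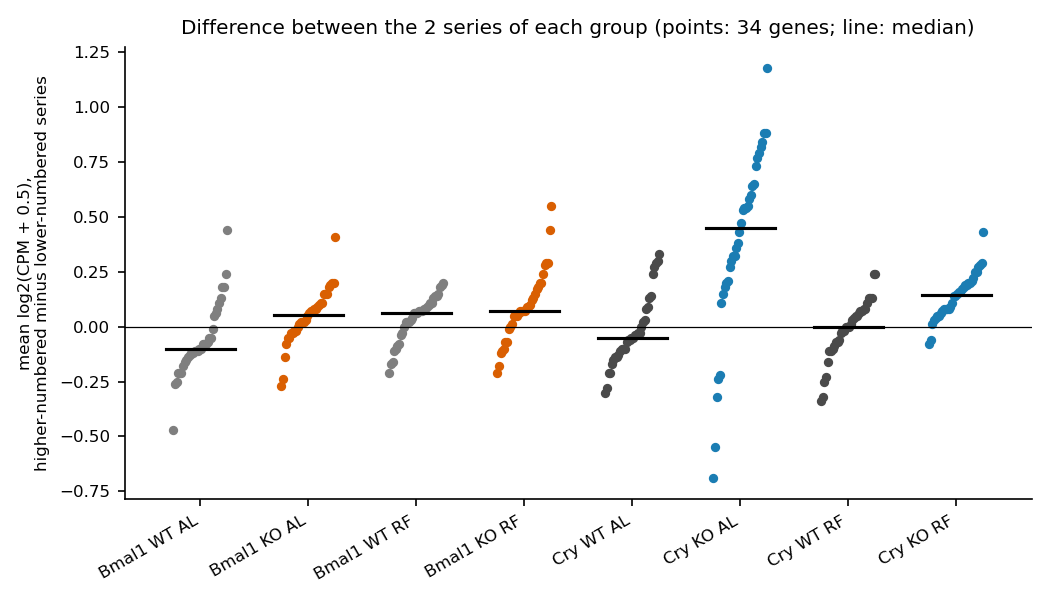
Difference in mean log2(CPM + 0.5) between the 2 series of each group, higher-numbered minus lower-numbered, for the 34 genes (points in order of size; black line, median). The Cry KO AL points are shifted upward, with a median of 0.45, and the other groups have medians between -0.10 and 0.14.

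Masp1, the mannose-binding lectin associated protease 1 that also cleaves clotting substrates, was at 211, 261 and 299 CPM in the Cry WT AL, 181, 213 and 256 CPM in series 1 of the KO AL and 144, 169 and 189 CPM in series 2. Both KO series had a lower median than the WT. Its call under AL held under all 11 alternatives, with adjusted p-values up to 0.0485, and under RF its log2 difference was -0.11 ± 0.07 (adjusted p = 0.498). Of the 45 other genes, 6 were higher and 5 lower in the Cry KO under AL, against 33% of all genes. Vkorc1, the vitamin K epoxide reductase, rose by 0.79 ± 0.16, histidine-rich glycoprotein (Hrg) by 0.47 ± 0.11 and C1ra by 0.31 ± 0.08 on the log2 scale. Under RF 0 were higher and 2 lower, against 6.3% of all genes. These 2 were Serpina5, at a mean of 0.135 ± 0.114 against 1.11 ± 1.01 CPM (SD, n = 12), and the fibrinogen gene Fgb, at 2479, 3002 and 3958 CPM in the KO against 2616, 4181 and 13537 CPM in the WT. The Cry WT RF group, with an SD of 2866 CPM for Fgb, holds the library with 21900 CPM of Saa1. Values without the libraries that stood apart were kept for the 34 genes alone, so none are given for these other genes.

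The difference of the Cry KO effect between regimens passed the test for 11 of the 34 genes, all with a lower effect under RF, against 6.33% of all genes. Mbl2 (-0.84 ± 0.18 SE), Mbl1 (-0.74 ± 0.18), vitronectin, Vtn (-0.63 ± 0.17), and C8b (-0.63 ± 0.18) had the largest differences in log2 effect (edgeR adjusted p = 0.0174, 0.0193, 0.0228 and 0.0300). Without series 2 of the Cry KO AL group, 0 of the 34 and 0 of all genes passed (Mbl2 then had -0.32, adjusted p = 0.745). Without series 1, 26 of the 34 did, and the share of all genes in that setting is not given. None of the 34 passed without series 5 of the Cry KO RF, without series 2 of the Cry WT AL or without series 6 of the Cry WT RF either. The adjusted p of Mbl2 ran from 1.45e-09 to 0.756 over its 15 alternatives.

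Feeding was compared within each genotype, RF over AL. These comparisons share their groups with the KO comparisons above. In the Bmal1 WT, 3 of the 34 genes were lower under RF and 0 higher, against 15.7% of all genes: F12 (log2 -0.25 ± 0.08 SE), F10 (-0.24 ± 0.09) and antithrombin, Serpinc1 (-0.22 ± 0.08), with edgeR adjusted p-values of 0.026, 0.0452 and 0.0462. F12 was at 399, 484 and 578 CPM under AL and 381, 412 and 428 CPM under RF, with overlapping ranges. None of the 3 was called with series as a random effect, or without series 1 of the AL group or either series of the RF group. In the Bmal1 KO 0 of 34 changed, against 0.545% of all genes, and in the Cry WT 0, against 1.59% (edgeR; 3 and 6 of the 34 had an unadjusted p under 0.05, and DESeq2 called 0 and 1). In the Cry KO, 1 gene (F5) was higher and 19 lower under RF, against 18.2% of all genes. Mbl1 (-0.81 ± 0.13), C2 (-0.73 ± 0.13), C8b (-0.72 ± 0.13) and Vtn (-0.64 ± 0.12) led. This comparison contains the Cry KO AL group: without its series 2, 1 gene was called, and with series as a random effect 0 were. Acute phase genes were lower in the same comparison, 7 of 10 (median log2 -1.32), as were 2 of 3 neutrophil markers (-2.80). Both exocrine pancreas markers tested were higher (5.91). The summed pancreas markers had a median of 21.4 and a highest level of 416 CPM in series 5 of the Cry KO RF. Their median was 0.625 CPM in series 3 of that group and 0.598 CPM in the Cry KO AL group. The part of these lists in the result was not tested.

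The WT groups of the lines were compared to see how far the controls differ. Under AL, 7 of the 34 genes differed, 2 higher and 5 lower in the Cry WT, against 20.5% of all genes. C4b was at 1153, 1344 and 2915 CPM in the Bmal1 WT and 1611, 2292 and 2843 CPM in the Cry WT (log2 0.59 ± 0.15 SE, edgeR adjusted p = 0.00449), C8a was higher by 0.48 ± 0.11 (adjusted p = 0.00276), and C8g was at 272, 318 and 394 CPM in the Bmal1 WT and 223, 229 and 257 CPM in the Cry WT, without overlap (-0.46 ± 0.14, adjusted p = 0.0138). Serpind1, Serpinc1, F10 and Kng1 were lower by 0.24 to 0.26. With series as a random effect 0 of the 7 were called. Under RF 0 of the 34 differed, against 0.856% of all genes (edgeR; 3 had an unadjusted p under 0.05, DESeq2 called 0).

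The difference between the KO effects, Cry minus Bmal1, is a comparison that shares all groups with the KO comparisons. Under AL it passed the test for 20 of the 34 genes, 16 with a higher and 4 with a lower effect in the Cry line, against 40.8% of all genes. C2 had the largest difference, 1.44 ± 0.18 SE in log2 effect (edgeR adjusted p = 4.86e-09), with a lower level in the Bmal1 KO and a higher level in the Cry KO. Its rise in the Cry KO was 0.21 and did not pass without series 2 of the Cry KO AL group (edgeR adjusted p = 0.419). Without series 2 of the Cry KO AL group, 7 of the 20 calls remained and 2 other genes were called. The log2 difference then was 0.29 for Mbl2, 0.11 for Vtn, 0.03 for Mbl1 and -0.028 for Serpinf2 (adjusted p = 0.163, 0.629, 0.929 and 0.913). With series as a random effect 9 of the 20 remained. Under RF it passed for 10 of the 34, 4 higher and 6 lower, against 15.2% of all genes. F11 (-0.95 ± 0.15, adjusted p = 1.81e-06), C8a (0.88 ± 0.16, adjusted p = 3.24e-05) and Plg (-0.56 ± 0.11, adjusted p = 0.000213) had the smallest p-values. With series as a random effect 3 of these 10 remained, and without the 7 libraries that stood apart 7 did, with C3 (-0.31, adjusted p = 0.257), C4b (-0.25, 0.535) and C6 (0.74, 0.0558) lost. C2, C8a, F11, Cfi and Kng1 under AL, and C8a, F11 and Plg under RF, passed under each of the 15 alternatives run for them.

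Rhythm was tested with a 24 h cosine in each group. To be called rhythmic, a gene had to span 0.5 log2 or more between fitted trough and peak, with an adjusted p below 0.05. Few genes of the list were. In the Bmal1 WT, 1 of 34 was rhythmic under AL (Serpinf2), against 9.97% of all genes, and 2 under RF (Serpinf2, Klkb1), against 12.8%. In the Cry WT, 1 was rhythmic under AL (Klkb1), against 6.67%, and 5 under RF (F11, Pros1, Serpinf2, Klkb1, Masp1), against 18.9%. The median fitted range in these 4 groups was 0.24 to 0.31 over the list and 0.41 to 0.52 over all genes tested. In the KO groups 0 of 34 were rhythmic: against 0.0317% of all genes in the Bmal1 KO AL, 5.26% in the Bmal1 KO RF, 0% in the Cry KO AL and 6.63% in the Cry KO RF (edgeR; 0, 4, 1 and 3 of the 34 had an unadjusted p under 0.05).

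Serpinf2 was called in 3 of the 4 WT groups, with peaks in the light phase. In the Bmal1 WT AL its 2 libraries were at 863 and 1116 CPM at ZT4 and at 394 and 504 CPM at ZT16, and in the Bmal1 WT RF at 802 and 870 CPM and at 390 and 417 CPM. In the Cry WT RF it was at 842 and 875 CPM at ZT4 and at 389 and 406 CPM at ZT16. The fitted ranges were 0.95 ± 0.23, 0.95 ± 0.23 and 0.93 ± 0.23 log2 (SE), with peaks at ZT4.9, ZT5.2 and ZT5.4 (edgeR adjusted p = 0.00861, 0.00758 and 0.00651). In the Cry WT AL, where it was not called, it was at 724 and 930 CPM at ZT4 and at 458 and 498 CPM at ZT16 (range 0.62 ± 0.22, peak ZT2.8, adjusted p = 0.187). In the 4 KO groups its fitted range was 0.25 to 0.65. Klkb1 had a similar course, with 231 and 246 CPM at ZT8 and 124 and 139 CPM at ZT16 in the Bmal1 WT RF, and a range of 0.72 ± 0.19 log2 with a peak at ZT6.0. Its range was 0.81 ± 0.20 in the Cry WT AL, peak ZT6.8, and 0.75 ± 0.19 in the Cry WT RF, peak ZT5.1.

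F11 was called rhythmic in the Cry WT RF, with 144.5 and 163 CPM at ZT8 and 72.8 and 76.3 CPM at ZT20 (range 1.02 ± 0.22 log2, peak ZT7.1, adjusted p = 0.00151). The fitted range was 0.66 to 0.72 in the 3 other WT groups, where it was not called. In the Cry KO RF it was at 46.3 and 47.3 CPM at ZT8, the time of its WT peak. The test of rhythm, KO against WT, gave an adjusted p of 0.0599 for F11 under RF. That test called 1 of the 34 genes in the Cry line under RF, C4bp, against 2.66% of all genes. In the 3 other comparisons of KO with WT 0 were called, against 0.767% (Bmal1 AL), 1.32% (Bmal1 RF) and 0.913% (Cry AL) of all genes (edgeR; 0, 1 and 2 of the 34 had an unadjusted p under 0.05). Between feeding regimens, 0 of 34 rhythms differed in any group, against 0.0127% of all genes in the Bmal1 WT, 0% in the Bmal1 KO, 0.0888% in the Cry WT and 0% in the Cry KO (edgeR; 0, 0, 1 and 1 of the 34 had an unadjusted p under 0.05). So a rhythm called in a WT group and not in its KO was not shown to differ between them.

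**Figure D4:**
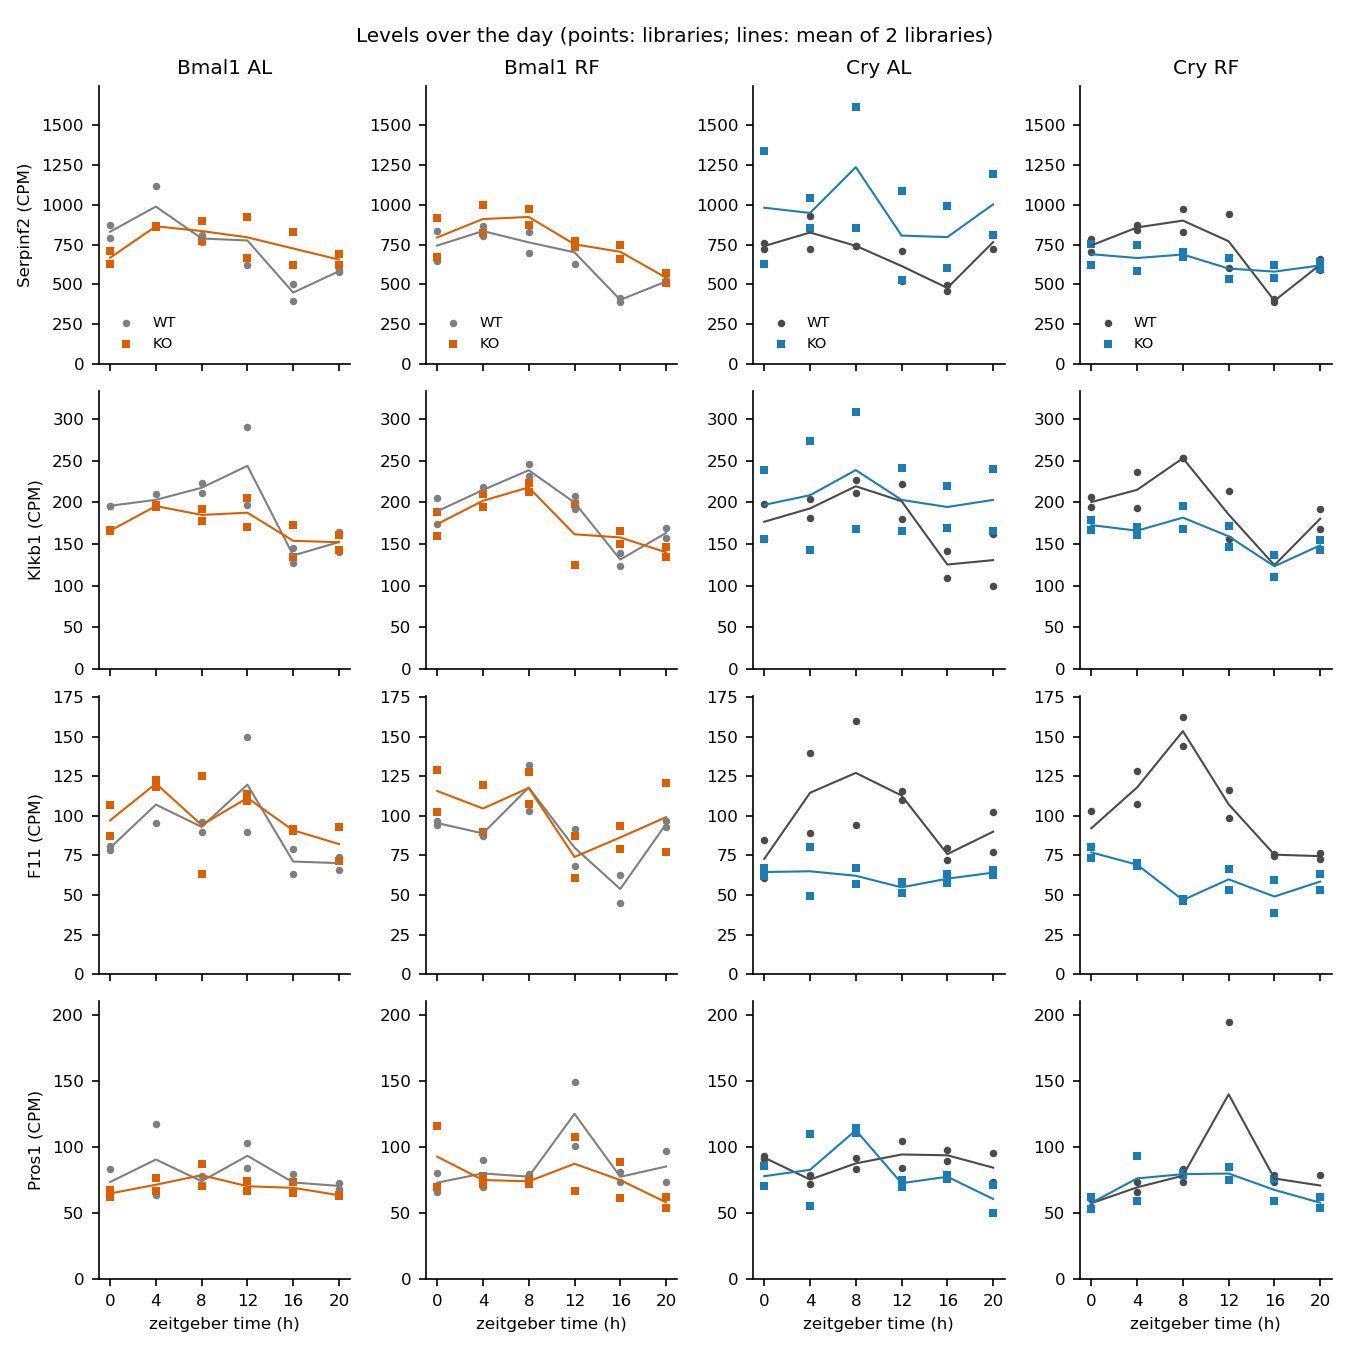
CPM of Serpinf2, Klkb1, F11 and Pros1 (rows) by zeitgeber time in hours for each line and feeding regimen (columns); points are libraries, lines join the means of 2 libraries, WT in grey and KO in colour. WT levels of Serpinf2, Klkb1 and F11 are higher at ZT4 to ZT8 than at ZT16, and 1 Cry WT RF library at ZT12 sets the Pros1 peak.

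The calls of Pros1 and C4bp were lost without series 6 of the Cry WT RF (adjusted p = 0.604 and 0.719). At ZT12 of the Cry WT RF, series 6 had 195 CPM of Pros1 and 1190 CPM of C4bp, the binding protein that limits C4b, while series 9 had 84.9 and 499 CPM. That library had 21900 CPM of Saa1. Without the 7 libraries that stood apart by Saa1, Isg15 or Ctrb1, the range of Pros1 was 0.48 log2 (adjusted p = 0.259) and the C4bp difference had an adjusted p of 0.669. The C4bp call was also lost without series 3 or series 5 of the Cry KO RF (adjusted p = 0.275 and 0.222), without the 3 shallowest libraries (0.0547) and with cell means for time (0.206). With 1 series of a group left out, 6 libraries remained, and rhythm calls were lost for Serpinf2 in all 3 groups, with its range between 0.78 and 1.14. Klkb1 likewise lost its call in its 3 groups when 1 series was left out, and with cell means for time in the Bmal1 WT RF and the Cry WT AL. Masp1 lost its call without series 6 of the Cry WT RF. F11 lost its call without series 9 of the Cry WT RF, with an adjusted p of 0.172 and a range between 0.84 and 1.21 over all its alternatives.

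The libraries with over 5000 CPM of Saa1 also set the extremes of many genes of the list. In the Bmal1 KO RF library of series 4 at ZT0, with 7530 CPM of Saa1, 14 of the 34 genes were the highest of the 12 libraries of the group and 6 the lowest, against 18.2% and 17.7% of all genes tested. In the Cry WT RF library of series 6 at ZT12, 15 were the highest and 3 the lowest, against 18.7% and 13.2% of all genes. The Cry WT AL library of series 2 at ZT12, with 166 CPM of Saa1 and 105 CPM of Isg15, had 12 of the 34 highest and 4 lowest, against 13.7% and 13.9%. In the 4 other libraries that stood apart, 0 to 1 were the highest and 0 to 4 the lowest, against 7.57% to 9.58% and 5.57% to 8.66% of all genes. Between the 2 libraries over 5000 CPM of Saa1, the highest genes were shared for 12, that is 12 of 14 and 12 of 15: F7, Serping1, Pros1, Kng1, Cpb2, Vtn, C3, C4b, Cfb, Cfi, Masp1 and C4bp. Proc and C8g, the lowest in both, were 2 of 6 and 2 of 3. No gene of the list was highest in one and lowest in the other. The same overlap was not counted over all genes tested, so it is not read as a trait of the list. Cpb2, the fibrinolysis inhibitor activated by thrombin, was at 618 CPM in the Bmal1 KO library against 259 to 331 CPM in the 11 others, and at 1034 CPM in the Cry WT library against 299 to 419 CPM. C3 was at 35581 CPM against 10423 to 16325 and at 18703 against 7370 to 10646 CPM. C6 was at 34.7 CPM in the Bmal1 KO library against 102 to 436 CPM, the source of its wide range, and within the range of the others in the Cry WT library. These are single libraries in different groups and no test was made. Without the 7 libraries that stood apart, the Bmal1 KO effect under RF remained called for C6 (-0.67, adjusted p = 0.00687) and C3, and was lost for C4b (0.25, adjusted p = 0.245) and F13b (0.17, adjusted p = 0.0662).

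**Figure D5:**
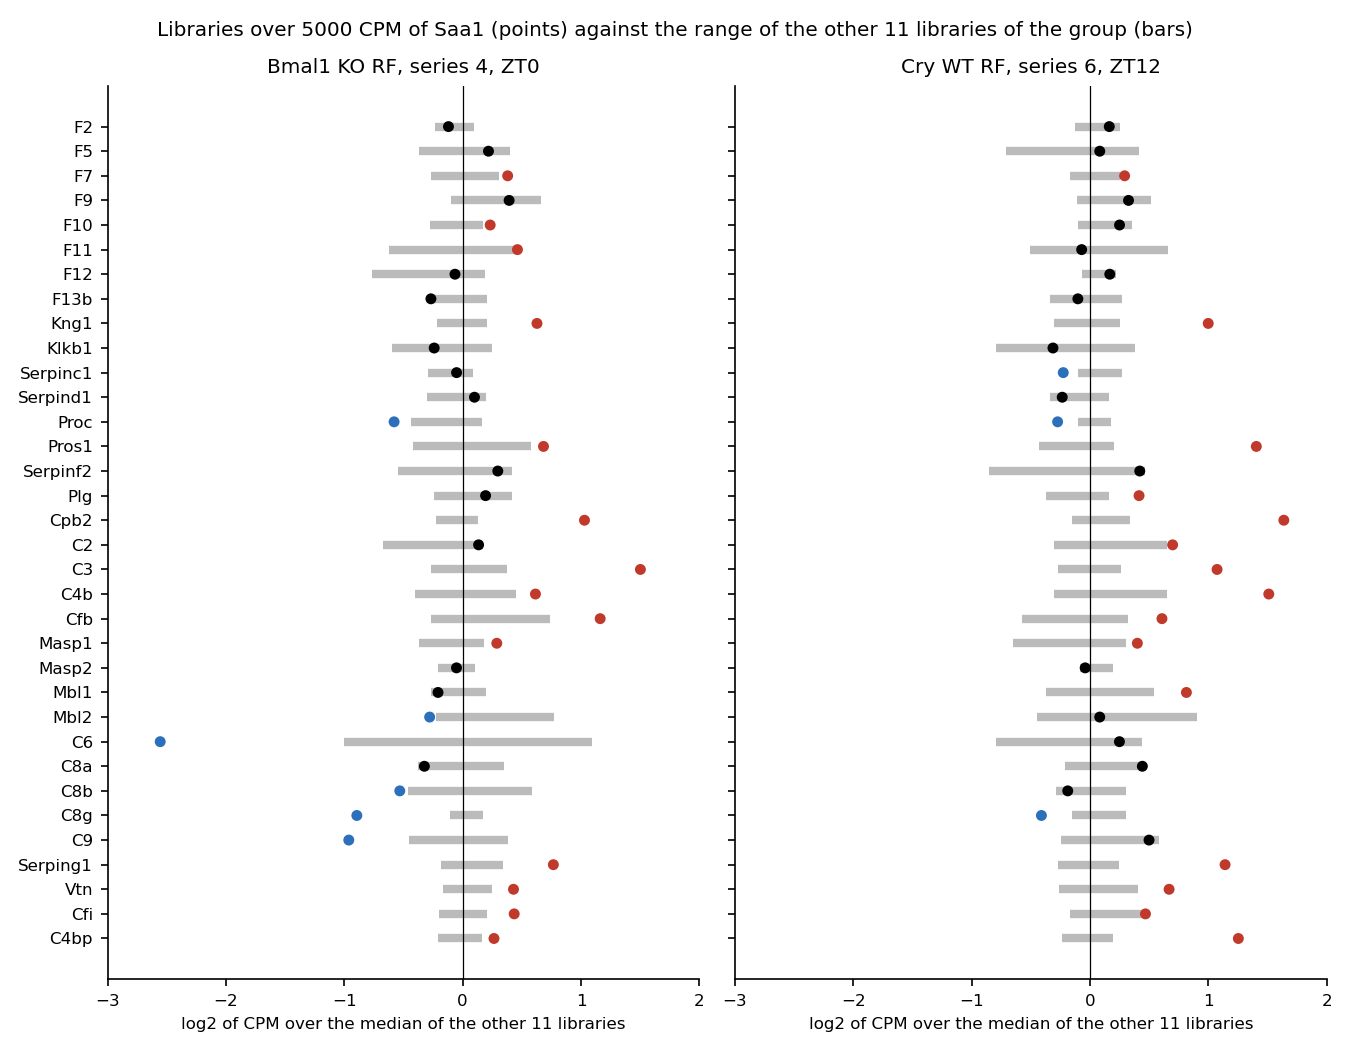
Level of the 34 genes in the 2 libraries with over 5000 CPM of Saa1 (points, log2 of CPM over the median of the 11 other libraries of the group) against the range of those 11 libraries (grey bars); red points are above and blue points below that range. C3, Cpb2, C4b, Serping1 and Cfb lie above the range in both panels, and C6 lies far below it in the Bmal1 KO RF library alone.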

How the data were processed

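Polyadenylated RNA of 96 mouse liver samples was sequenced from libraries of the TruSeq Stranded mRNA kit (250 ng of RNA, 11 PCR cycles, paired ends of 100 cycles), per the labels' protocols. The authors deposited whole-number counts per gene; reads had been aligned with STAR 2.4.0i to mm10, per the submitters' processing notes. Neither the counting program nor its strand setting or annotation is given in the sources used here. From the deposited counts, edgeR 4.0.16 (R 4.3.3) was run with TMM scaling and filterByExpr at a minimum count of 10 and a minimum total of 15, leaving 99.94% of the counts. One quasi-likelihood fit over the 8 groups, with a 24 h cosine in each, gave mean levels and rhythms, and p-values were adjusted over 15772 genes (Benjamini-Hochberg, threshold 0.05). Alternatives were DESeq2 1.42.0, limma-voom (limma 3.58.1) with series as a random effect, RLE scaling, no filter and the compared groups alone. Further alternatives were leaving out series or libraries and, for rhythms, cell means for time. The code was tested on simulated data. Full values are given for called genes, at most the 8 with the smallest adjusted p per comparison, and for at most 4 other pathway genes per KO comparison; genes outside that rule were chosen after their values were seen. One pathway gene that the rule would name is not reported here. The 34 genes and the other lists were chosen with earlier results of these data known.

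Replicate numbers are shared between the WT and KO of the Bmal1 line. Deviations from group means of same-numbered series correlated at 0.22 under AL and 0.24 under RF, over 2 pairs each, which were not taken as pairs.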

Additional observations from a re-analysis of the deposited data

Results flagged for a closer look

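The KO effect differed between the lines, by a test of the difference itself (edgeR, adjusted p under 0.05), for 20 genes under AL. The differences in log2 effect, Cry minus Bmal1, were 1.44 for C2, 0.83 for C8a, 0.80 for Mbl2, 0.78 for Kng1, 0.64 for Proc, 0.62 for Cfb, 0.60 for Vtn, 0.56 for Cfi, 0.50 for Mbl1, 0.49 for F10, 0.40 for Klkb1, 0.40 for Serpinf2, 0.37 for F7, 0.30 for Serpinc1, 0.26 for Masp2 and 0.25 for Serpind1. They were -0.81 for F11, -0.78 for C9, -0.52 for F5 and -0.33 for Masp1. Without series 2 of the Cry KO AL group 7 of these 20 remained, and with series as a random effect 9. Under RF the difference passed for 10 genes: 0.98 for Cfb, 0.88 for C8a, 0.77 for C6, 0.73 for C2, -0.27 for F13b, -0.56 for Plg, -0.63 for C3, -0.64 for C4b, -0.95 for F11 and -0.97 for C9. With series as a random effect 3 of these 10 remained, and C3, C4b and C6 were lost without the 7 libraries that stood apart.

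The KO effect in the Cry line differed between feeding regimens, by the same kind of test, for 11 genes. The differences, RF minus AL, were -0.84 for Mbl2, -0.74 for Mbl1, -0.63 for Vtn, -0.63 for C8b, -0.60 for C2, -0.59 for Serpinf2, -0.54 for Klkb1, -0.52 for Proc, -0.46 for Kng1, -0.44 for F10 and -0.41 for F2. None of the 34 genes passed without series 2 of the Cry KO AL group. The same held without series 5 of the Cry KO RF, series 2 of the Cry WT AL or series 6 of the Cry WT RF.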

How the results depend on the processing

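Counts of the 34 genes called moved most with the series. With series as a random effect in limma-voom, the KO effect was called for 3 (Bmal1 AL), 5 (Bmal1 RF) and 6 (Cry AL) genes, the RF effect for 0 in the Bmal1 WT and 0 in the Cry KO, the RF minus AL difference in the Cry line for 0, the difference between WT groups under AL for 0, and Cry minus Bmal1 for 9 under AL and 3 under RF. Over all genes it called 1277, 1173, 1100 and 161 in the Bmal1 AL, Bmal1 RF, Cry AL and Cry RF comparisons, against 3847, 3244, 5205 and 994. With 1 series left out, the KO effect was called for 5 to 10 (Bmal1 AL), 7 to 11 (Bmal1 RF), 2 to 26 (Cry AL) and 1 to 1 (Cry RF) genes, the RF effect for 0 to 5 (Bmal1 WT), 0 to 2 (Bmal1 KO) and 1 to 28 (Cry KO), RF minus AL in the Cry line for 0 to 26, the WT difference under AL for 1 to 6, and Cry minus Bmal1 for 9 to 25 (AL) and 7 to 10 (RF); rhythms numbered 0 to 0 in the Bmal1 WT under AL and under RF, 0 to 1 in the Cry WT AL, 1 to 4 in the Cry WT RF, and 0 to 1 for KO against WT in the Cry line under RF. With the compared groups alone, the KO effect was called for 8 (Cry AL) and 3 (Cry RF), the RF effect for 8 (Bmal1 WT), 1 (Cry WT) and 4 (Cry KO), and RF minus AL in the Cry line for 0. Without the filter on low counts the values were 3 (KO effect, Cry RF), 1, 1 and 3 (RF effect in the Bmal1 WT, Bmal1 KO and Cry WT), 3 (WT groups, AL), 2 (rhythmic, Bmal1 WT AL), 2 (rhythmic, Cry WT AL) and 2 (rhythm, KO against WT, Cry RF). Without the 3 shallowest libraries they were 2 (KO effect, Cry RF), 0 (RF minus AL, Cry) and 0 (rhythm, KO against WT, Cry RF). Without the libraries that stood apart they were 2 (KO effect, Cry RF), 1 and 1 (RF effect, Bmal1 WT and Cry WT), 0 (RF minus AL, Cry) and 0 (rhythm, KO against WT, Cry RF). RLE size factors gave 1 for the RF effect in the Bmal1 WT, and DESeq2 gave 1 for it in the Cry WT. An intercept per series gave 3, 2, 2 and 1 rhythmic genes in the Bmal1 WT AL, Bmal1 KO RF, Cry WT AL and Cry KO RF, and 3 for rhythm, KO against WT, in the Cry line under RF; cell means for time gave 0 in the Cry WT AL and 0 for that comparison. Counts over all genes are given here only for the KO effects with series as a random effect. The other counts are therefore not read as a trait of the list. The cause of these shifts was not tested. Without series 2 of the Cry KO AL group the sign turned in the KO effect under AL for Serpinc1 (-0.0011, and 0.57 without series 1), F5 (0.01, -0.64), C8g (-0.20, 1.02), F2 (-0.079, 0.69), F10 (-0.035, 0.65), Klkb1 (-0.084, 0.60), F12 (-0.081, 0.49) and Proc (-0.073, 0.79), in the RF effect in the Cry KO for C8g (0.20, -1.02), F2 (0.06, -0.71), F10 (0.047, -0.64), F12 (0.066, -0.51) and Proc (0.06, -0.80), in RF minus AL for F2 (0.00073, -0.77) and in Cry minus Bmal1 under AL for Serpinf2 (-0.028, 0.78); the second value of each pair is without series 1. The replicate block in the Bmal1 line left 10 genes called under AL and 10 under RF, and 0 for the RF minus AL difference and for rhythm, KO against WT. No paired analysis was possible in the Cry line because its groups share fewer than 2 series numbers. Precision is limited by 2 libraries per time and group, and by the 3 shallowest libraries, of 1478963, 2694543 and 3181499 counts.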
